A study of Homo sapiens with 16 samples.

Results

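TIP60, the product of the gene KAT5, is the acetyltransferase of a large chromatin complex, and its knockdown was set here against knockdowns of 4 subunits that lack this activity. The comparison took the 2 siTIP60 libraries against the 8 libraries of siMRG15, siMRGX, siMRGBP and siBRD8, 10 of the 16 samples of the series. Each of the 4 groups had a weight of 0.25 in their mean. A gene counted as higher or lower than each of the 4 where the comparison with the mean and all 4 single comparisons passed the test in the same direction.

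Poly(A) RNA had been taken from U2OS, an established line of human osteosarcoma cells. Cells had received siRNA against TIP60, against MRG15 (gene MORF4L1), MRGX (gene MORF4L2), MRGBP or BRD8, or against luciferase (siLuc, the control), and each group held 2 libraries. Per the labels the siRNAs against TIP60, MRG15, MRGX and MRGBP were pools and the one against BRD8 was a single sequence. Each target had 1 reagent, so effects of a reagent and of its target cannot be told apart. The labels do not say whether the 2 libraries of a group stem from different cultures, and the p-values therefore rest on a spread that may be technical. The 4 chromatin samples of K562 cells were not analysed here.

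The TIP60 complex acetylates the tails of histones H4 and H2A and exchanges the variant H2A.Z into nucleosomes. MRG15 and MRGX are related proteins that also sit in histone deacetylase complexes, MRGBP holds the MRG proteins in the TIP60 complex, and BRD8 carries a bromodomain, a module that binds acetylated lysine. TIP60 is also known for its part in DNA damage signalling and for acetylating proteins other than histones, p53 among them.

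The deposited table held 8808 genes that its authors had selected as significantly different, so each share below is a share of selected genes. Genes left out by that selection did not enter the adjustment of p-values. The rate of false calls at an adjusted p of 0.05 is therefore not assured. Effective library sizes, inferred here from the steps between CPM values, were 57255783 to 110402095, with 90293808 and 94890716 in siTIP60. They include any scaling in the deposited CPM and may differ from the number of reads. Levels are reads of a gene scaled to library size (CPM). Differences are siTIP60 minus the other group in log2(CPM + 1), given ± SE from limma over all 12 libraries, and they understate the change of genes near 0. Calls are at an adjusted p of 0.05 (limma, Benjamini-Hochberg over 8808 genes, two-sided). Of 8 markers of the osteoblast lineage, from which U2OS cells derive, 4 were listed, and their summed level was 1807 and 1844 CPM in siTIP60, 1078 to 1846 CPM in the 8 other knockdown libraries and 1912 and 2436 CPM in siLuc. COL1A1 made up most of these sums and differed by 0.20 from the mean of the 4. The other markers listed, RUNX2, ALPL and CDH11, differed by 1.54, 1.84 and 0.62.

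KAT5 itself was at 2.48 and 2.80 CPM in siTIP60, 16.8 to 21.8 CPM (median 18.7) in the 8 other knockdown libraries and 19.7 and 18.8 CPM in siLuc. The siTIP60 libraries lay far below all others, with a difference of -2.46 ± 0.06 (adjusted p = 3.2e-12) from the mean of the 4. In the authors' deposited table of transcripts 4 of the 8 KAT5 transcripts were marked as lower in siTIP60 than in each of the 4. The other targets do not serve as readouts of the mean, because each was reduced by its own siRNA. MORF4L1 was at 202 and 206 CPM in siTIP60, 15.7 and 13.7 CPM in siMRG15, 317 and 309.9 CPM in siMRGX, 292 and 275 CPM in siMRGBP, 332 and 341 CPM in siBRD8 and 316 and 328 CPM in siLuc. Leaving siMRG15 out turned its difference to -0.60, against 0.47 over the 4. MORF4L2 was at 141 and 138 CPM in siTIP60, 157 and 158 CPM in siMRG15, 20.3 and 19.5 CPM in siMRGX, 206 and 175 CPM in siMRGBP, 173 and 176 CPM in siBRD8 and 240.2 and 298 CPM in siLuc, and leaving siMRGX out turned its difference to -0.32.

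MRGBP was at 45.1 and 44.4 CPM in siTIP60, 67.7 and 69.1 CPM in siMRG15, 98.6 and 104 CPM in siMRGX, 7.96 and 7.82 CPM in siMRGBP, 77.6 and 74.0 CPM in siBRD8 and 91.4 and 115 CPM in siLuc. BRD8 was at 44.3 and 50.4 CPM in siTIP60, 74.0 and 78.9 CPM in siMRG15, 77.6 and 74.9 CPM in siMRGX, 48.1 and 47.0 CPM in siMRGBP, 18.6 and 18.5 CPM in siBRD8 and 80.0 and 73.5 CPM in siLuc. Transcripts of both genes were thus lower in siTIP60 than in siLuc without an siRNA against them, by -1.18 ± 0.09 (adjusted p = 5.39e-08) for MRGBP and -0.69 ± 0.07 (adjusted p = 1.53e-06) for BRD8. So were MORF4L1, by -0.66 ± 0.07 (adjusted p = 1.39e-06), and MORF4L2, by -0.94 ± 0.09 (adjusted p = 1.04e-06). Other knockdowns shared part of this. MRGBP differed from siLuc by -0.58 in siMRG15, -0.43 in siBRD8 and -0.02 in siMRGX. BRD8 differed by -0.68 in siMRGBP, -0.005 in siMRG15 and -0.008 in siMRGX. MORF4L2 differed by -0.76 in siMRG15, -0.61 in siBRD8 and -0.49 in siMRGBP. Its level in siTIP60 was not called different from that in siMRG15 (-0.18, adjusted p = 0.0969, limma). MORF4L1 differed by -0.18 in siMRGBP, -0.04 in siMRGX and 0.06 in siBRD8.

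Of the 8808 genes 3864 (43.9%) were higher and 3207 (36.4%) lower in siTIP60 than the mean of the 4. A smaller number held against every knockdown: 1844 genes (20.9%) were higher and 1507 (17.1%) lower than each of the 4. A difference of 2-fold or more from each of the 4 was seen for 320 of the higher genes (3.63% of all genes) and 248 of the lower genes (2.82%). Both siTIP60 libraries lay above all 8 others for 2239 genes (25.4%) and below all 8 for 1835 genes (20.8%). Genes higher in siTIP60 numbered 3659 (41.5%) against siMRG15, 4295 (48.8%) against siMRGX, 3487 (39.6%) against siMRGBP and 3562 (40.4%) against siBRD8. Genes lower in siTIP60 numbered 3578 (40.6%) against siMRG15, 3019 (34.3%) against siMRGX, 3067 (34.8%) against siMRGBP and 3129 (35.5%) against siBRD8. These comparisons share the siTIP60 libraries.

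**Figure D1:**
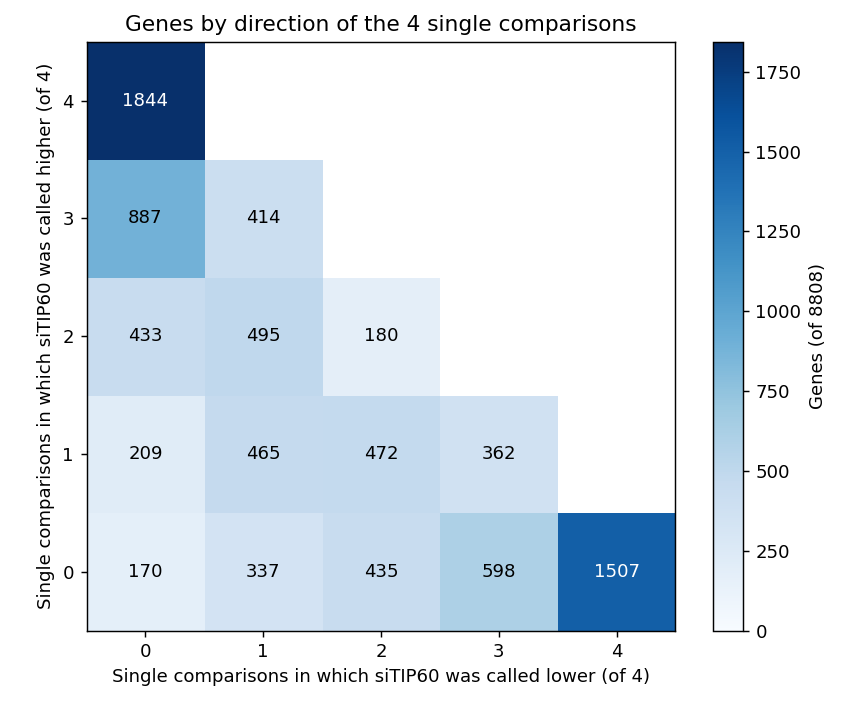
Each cell gives the number of genes, of 8808, by how many of the 4 single comparisons called siTIP60 higher and how many called it lower. The cells with 4 calls in 1 direction hold 1844 and 1507 genes, and 170 genes had no call against any of the 4.

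Among the genes beyond each of the 4, siMRGBP was most often the knockdown nearest to siTIP60. The smallest of the 4 differences was the one from siMRGBP for 766 of the 1844 higher genes, from siBRD8 for 446, from siMRG15 for 365 and from siMRGX for 267. For the 1507 lower genes it was the one from siMRGBP for 630, from siMRG15 for 408, from siBRD8 for 239 and from siMRGX for 230. The 4 knockdowns differed among themselves at 8210 genes (93.2%) by limma's moderated F test, so their mean averages unlike profiles. Against siLuc 3617 genes (41.1%) were higher and 3323 (37.7%) lower in siTIP60, and 2448 (27.8%) were higher and 2951 (33.5%) lower in the mean of the 4.

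Among genes whose names matched a known symbol, the 12 that stood highest in siTIP60 relative to every other knockdown were CST5, HHIP, PLCH1, IL1A, MMP9, SIGLEC15, TNFRSF11B, KISS1, GPA33, SAA1, FRG2 and STC2. Even the nearest knockdown differed by at least 5.74-fold on the CPM + 1 scale. PLCH1, a phospholipase C, was at 66.3 and 72.4 CPM in siTIP60, 1.01 to 7.80 CPM (median 3.18) in the 8 other knockdown libraries and 2.64 and 2.69 CPM in siLuc, a difference of 4.08 ± 0.09 (adjusted p = 2.77e-12). KISS1, the precursor of the kisspeptin hormones, was at 128 and 122 CPM in siTIP60, 4.90 to 18.6 CPM (median 6.92) in the 8 other knockdown libraries and 11.8 and 7.58 CPM in siLuc. CST5, a secreted inhibitor of cysteine proteases, was at 14.7 and 11.9 CPM in siTIP60, 0.0431 to 0.559 CPM (median 0.131) in the 8 other knockdown libraries and 0.234 and 0.140 CPM in siLuc. For these 3 genes the siTIP60 libraries stood close together and far above all others, and the control lay among the other knockdowns.

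MMP9, a protease that degrades collagen, was at 402 and 378 CPM in siTIP60, 15.9 to 50.8 CPM (median 28.9) in the 8 other knockdown libraries and 63.0 and 52.4 CPM in siLuc. HHIP, a membrane protein that binds hedgehog ligands and limits them, was at 87.4 and 88.7 CPM in siTIP60, 4.93 to 10.2 CPM (median 7.07) in the 8 other knockdown libraries and 18.8 and 21.2 CPM in siLuc. For both genes the control lay above all 8 other knockdown libraries and below both siTIP60 libraries. TNFRSF11B, or osteoprotegerin, a decoy receptor that restrains osteoclast formation, was at 571 and 503 CPM in siTIP60, 23.4 to 78.3 CPM (median 43.4) in the 8 other knockdown libraries and 60.04 and 69.4 CPM in siLuc. SIGLEC15, a receptor for sialic acids, was at 13.8 and 13.5 CPM in siTIP60, 0.262 to 1.01 CPM (median 0.520) in the 8 other knockdown libraries and 0.885 and 0.969 CPM in siLuc. In these genes siTIP60 was again apart, and siLuc lay within the range of the 8 and above their median. FRG2 and SAA1 have near-identical copies in the genome, and how reads were shared among such copies is not given in the sources used here. FRG2 was at 6.32 and 4.69 CPM in siTIP60, 0 to 0.136 CPM (median 0.0332) in the 8 other knockdown libraries and 0.0391 and 0.0350 CPM in siLuc, and SAA1, an acute phase protein, was at 12.03 and 13.7 CPM in siTIP60, 0.119 to 1.32 CPM (median 0.694) in the 8 other knockdown libraries and 0.430 and 0.7001 CPM in siLuc.

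Within the same matched names, the 12 genes that stood lowest were FAM111B, CAPZA1, KAT5 itself, TMTC3, CORO1C, HDGF, FAM127B (now RTL8A), MCMBP, PRC1, DPYSL5, TAF9B and WASF2, with a fold of at least 3.86 against the nearest knockdown. FAM111B, a nuclear protease, was at 5.37 and 6.59 CPM in siTIP60, 39.3 to 90.5 CPM (median 60.8) in the 8 other knockdown libraries and 91.5 and 81.9 CPM in siLuc, a difference of -3.14 ± 0.09 (adjusted p = 8e-12). CAPZA1, a subunit of the protein that caps actin filaments, was at 55.4 and 59.7 CPM in siTIP60, 299 to 473 CPM (median 419.6) in the 8 other knockdown libraries and 438 and 501 CPM in siLuc. CORO1C, an actin-binding coronin, was at 31.9 and 36.1 CPM in siTIP60, 153 to 241 CPM (median 183) in the 8 other knockdown libraries and 163 and 170.4 CPM in siLuc. In all 3 genes siTIP60 lay below every other library. WASF2, a subunit of the WAVE complex that promotes actin branching, was at 69.9 and 72.4 CPM in siTIP60, 272 to 345 CPM (median 308) in the 8 other knockdown libraries and 221 and 206 CPM in siLuc, so here the control lay below the 8 others too.

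HDGF, a growth factor that binds chromatin, was at 90.0 and 97.6 CPM in siTIP60, 388 to 691 CPM (median 524) in the 8 other knockdown libraries and 673 and 769.6 CPM in siLuc. MCMBP, a partner of the replicative helicase subunits, was at 22.6 and 24.7 CPM in siTIP60, 100.2 to 131 CPM (median 111) in the 8 other knockdown libraries and 99.9 and 108 CPM in siLuc. TAF9B, a relative of a general transcription factor subunit, was at 8.43 and 9.40 CPM in siTIP60, 36.3 to 89.5 CPM (median 64.5) in the 8 other knockdown libraries and 65.2 and 67.7 CPM in siLuc. The siTIP60 level of each was below all 8, as the choice of these 24 genes required. In the authors' deposited table of transcripts all 12 higher genes, and the 11 lower genes it lists, had at least 1 transcript marked in the same direction against each of the 4. The genes were chosen for large differences between these same knockdowns, so the marks are not a separate test of them.

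**Figure D2:**
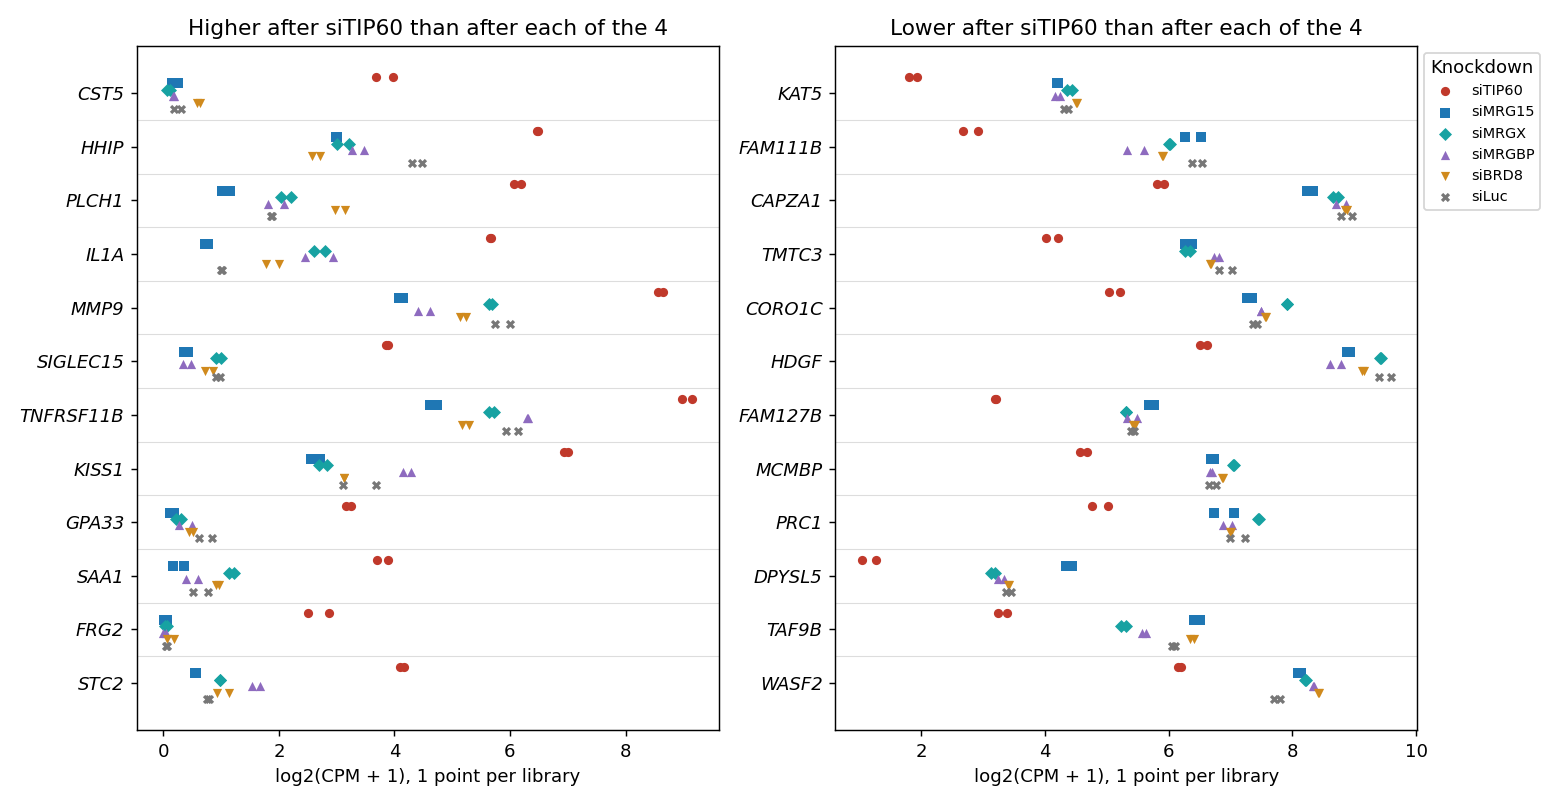
Levels in log2(CPM + 1) by library for the 12 genes that stood highest and the 12 that stood lowest in siTIP60 relative to every other knockdown, among genes with a matched name, with 1 point per library. The siTIP60 points stand apart from those of the 4 other knockdowns in every row.

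Genes of the cell division cycle were lower in siTIP60. Of 36 genes of DNA replication and S phase entry 30 were measured, of which 30 were lower than the mean of the 4 and 28 lower than each. Of 32 mitosis genes 30 were measured, again with 30 lower than the mean and 28 lower than each. The median differences were -1.16 for replication and -1.28 for mitosis, beside 0.06 over all genes, of which 36.4% were lower than the mean and 17.1% lower than each. The medians against single knockdowns ran from -1.40 to -0.86 for replication and from -1.43 to -1.08 for mitosis. Relative to siLuc the replication median was -1.39 in siTIP60 and -0.12 in the mean of the 4, and the mitosis median was -1.48 in siTIP60 and -0.24 in the mean of the 4. In bulk RNA, fewer cells in a phase of the cycle and less RNA per cell cannot be told apart.

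Among replication genes RRM2, the small subunit of ribonucleotide reductase, was at 120.1 and 123 CPM in siTIP60, 328 to 654 CPM (median 522) in the 8 other knockdown libraries and 446 and 452 CPM in siLuc, a difference of -2.0 ± 0.05 (adjusted p = 3.49e-12). TYMS, which makes thymidylate, was at 86.1 and 88.6 CPM in siTIP60, 247 to 457 CPM (median 304) in the 8 other knockdown libraries and 383 and 361 CPM in siLuc. GINS2, a subunit of the helicase at the replication fork, was at 5.03 and 5.15 CPM in siTIP60, 12.4 to 30.6 CPM (median 20.5) in the 8 other knockdown libraries and 19.1 and 18.3 CPM in siLuc. The siTIP60 libraries were below all others in each case. GINS1, of the same helicase, differed by -1.77 ± 0.05 (adjusted p = 1.64e-11) and TK1, thymidine kinase, by -1.32 ± 0.04 (adjusted p = 3.84e-11). The 2 members that were not lower than each, CDC45 and LIG1, were named after their values were seen. CDC45, another helicase subunit, was at 26.7 and 28.2 CPM in siTIP60 and 23.4 and 25.6 CPM in siMRGBP, and LIG1, a DNA ligase, at 51.8 and 52.1 CPM in siTIP60 and 42.5 and 48.8 CPM in siMRGBP. Both were called higher than siMRGBP and lower than the other 3.

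Among mitosis genes CCNA2, cyclin A2, was at 47.3 and 47.8 CPM in siTIP60, 138 to 227 CPM (median 159) in the 8 other knockdown libraries and 242 and 253 CPM in siLuc, a difference of -1.80 ± 0.05 (adjusted p = 5.97e-12). PRC1, which bundles microtubules of the central spindle, was at 25.9 and 31.4 CPM in siTIP60, 106 to 175 CPM (median 128) in the 8 other knockdown libraries and 148.9 and 126 CPM in siLuc. PLK1, a kinase of mitotic entry, was at 64.1 and 61.0 CPM in siTIP60, 127 to 209 CPM (median 175) in the 8 other knockdown libraries and 184 and 174 CPM in siLuc. All 3 were lowest in the siTIP60 libraries. The kinases AURKA and AURKB differed by -1.58 ± 0.05 (adjusted p = 1.87e-11) and -1.45 ± 0.04 (adjusted p = 1.7e-11), and KIF20A, a kinesin of cytokinesis, by -1.56 ± 0.05 (adjusted p = 4.51e-11). The 2 members not lower than each were again named after their values were seen. FOXM1, a transcription factor of mitotic genes, was at 228 and 236 CPM in siTIP60 and 224 and 219.9 CPM in siMRGBP, with no call between them. ANLN, a scaffold of the contractile ring, was at 303 and 355 CPM in siTIP60 and lower, at 209.7 and 240.3 CPM, in siMRG15.

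**Figure D3:**
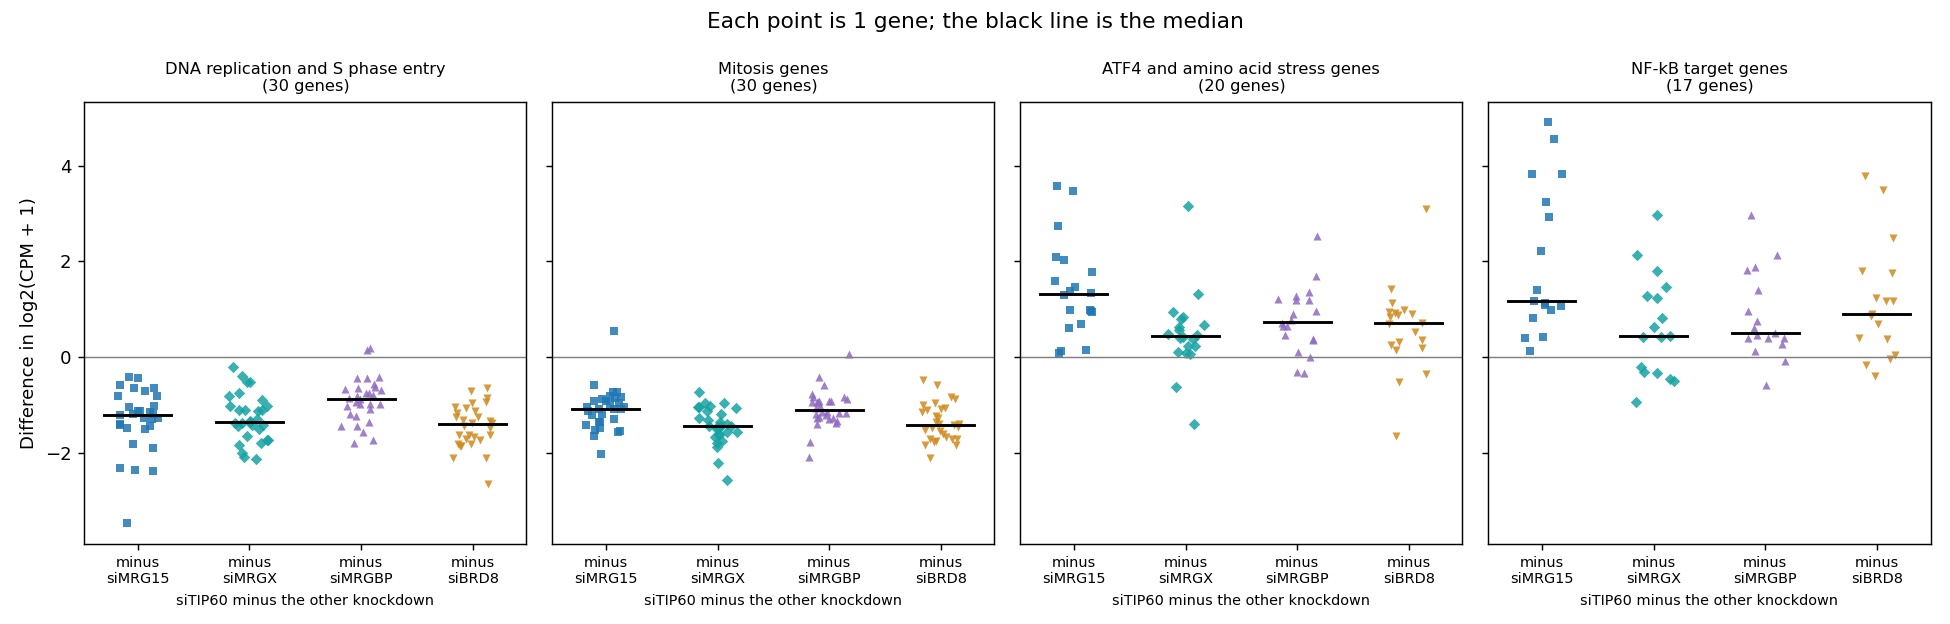
Each point is the difference of 1 gene in log2(CPM + 1), siTIP60 minus the knockdown named on the axis, for 4 gene lists, with medians as lines. Replication and mitosis medians lie below 0 against all 4 knockdowns, and the ATF4 and NF-kB medians lie above 0, with the highest against siMRG15 (1.32 and 1.18).

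Promoters of 4 of these genes are shown because cell cycle genes are known to share short upstream elements, the CCAAT box, the E2F site of replication genes and the CHR of mitotic genes. The windows are the 250 bases before the annotated start (RefSeq, GRCh38.p14), written 5′ to 3′ on the strand of the gene, with matches in capitals. Motifs were searched on both strands, and a base could count in more than 1 match. The letters of the CHR were TTTGAA. The CCAAT box was searched by the letters of its name. Matches to E2F were any of TTTCCCGC, TTTCGCGC, TTTGCCGC and TTTGGCGC. PLK1 (chr16:23678639-23678888, plus strand) held CCAAT 73 and CHR 29 bases before the start. PRC1 (chr15:90994536-90994785, minus strand) held CCAAT at 53 and CHR at 20. RRM2 (chr2:10122489-10122738, plus strand) held CCAAT at 123, 93 and 66. GINS2 (chr16:85688955-85689204, minus strand) held CCAAT at 158 and, on the other strand, an E2F match at 31.
PLK1: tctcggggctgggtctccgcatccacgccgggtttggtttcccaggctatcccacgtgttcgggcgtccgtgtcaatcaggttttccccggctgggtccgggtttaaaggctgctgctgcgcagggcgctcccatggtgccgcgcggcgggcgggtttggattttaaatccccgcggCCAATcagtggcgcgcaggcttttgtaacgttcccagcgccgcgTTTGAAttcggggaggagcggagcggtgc
PRC1: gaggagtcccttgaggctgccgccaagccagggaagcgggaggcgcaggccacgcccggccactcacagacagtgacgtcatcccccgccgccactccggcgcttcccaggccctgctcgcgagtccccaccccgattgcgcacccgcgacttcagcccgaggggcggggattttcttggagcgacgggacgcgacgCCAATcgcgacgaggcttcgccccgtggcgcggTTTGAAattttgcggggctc
RRM2: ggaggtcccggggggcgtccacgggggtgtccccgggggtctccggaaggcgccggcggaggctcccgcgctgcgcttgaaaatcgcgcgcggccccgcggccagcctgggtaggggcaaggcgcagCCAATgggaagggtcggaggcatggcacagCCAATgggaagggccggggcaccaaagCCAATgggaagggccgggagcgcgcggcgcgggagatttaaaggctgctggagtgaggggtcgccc
GINS2: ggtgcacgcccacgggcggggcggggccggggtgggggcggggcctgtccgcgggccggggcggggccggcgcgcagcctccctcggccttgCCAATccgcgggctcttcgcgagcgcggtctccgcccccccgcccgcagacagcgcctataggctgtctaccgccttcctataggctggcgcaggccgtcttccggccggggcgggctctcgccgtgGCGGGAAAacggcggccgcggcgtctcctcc

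Of 24 mitosis genes with a window, 11 (45.8%) held the CHR letters and 16 (66.7%) CCAAT. Of 27 replication genes with a window, 13 (48.1%) held E2F letters, 17 (63%) CCAAT and 1 (3.7%) the CHR letters. Over the 5447 tested genes with a window the shares were 9.79% for CHR, 35.1% for CCAAT and 3.98% for E2F, and over all 27305 promoters they were 13.6%, 33% and 2.79%. E2F letters stood in 75 of 1114 windows (6.73%) of genes lower in siTIP60 than each of the 4 and in 19 of 1133 (1.68%) of genes higher than each. The CHR letters stood in 159 (14.3%) of the lower and 83 (7.33%) of the higher genes. CCNA2 held CCAAT 56 bases before its start, and TYMS held an E2F match at 39. The exact letters TTTGAA were absent from the CCNA2 window, but variants of the CHR were not searched, so this does not say that it lacks one. A match is a run of letters and not a bound site.

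Genes of DNA damage signalling and repair were lower as well. Of 28 genes 15 were measured, of which 14 were lower than the mean of the 4 and 13 lower than each, with a median of -1.04. Over all genes 36.4% were lower than the mean and 17.1% lower than each. BRIP1, a helicase that works with BRCA1, was at 29.9 and 35.3 CPM in siTIP60, 67.5 to 91.6 CPM (median 80.1) in the 8 other knockdown libraries and 76.0 and 75.3 CPM in siLuc. FANCA, of the Fanconi anaemia core complex, was at 34.7 and 36.3 CPM in siTIP60, 57.6 to 99.8 CPM (median 76.0) in the 8 other knockdown libraries and 76.8 and 73.1 CPM in siLuc. RAD54L, a motor protein of recombination, differed by -1.04 ± 0.06 (adjusted p = 2.15e-09), and XRCC3, of recombination repair, by -1.04 ± 0.06 (adjusted p = 2.86e-09). In all 4 the siTIP60 libraries were lowest. TP53BP1, which binds chromatin at breaks and was named after its value was seen, was the only member that was higher, at 129 and 137 CPM in siTIP60, against 65.6 to 107 CPM in the 8 others.

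Targets of p53 went both ways. Of 29 genes 18 were measured, 6 were higher and 9 lower than the mean of the 4, and 1 was higher and 4 lower than each. Over all genes 43.9% were higher and 36.4% lower than the mean, and 20.9% higher and 17.1% lower than each. A fit of the 8 libraries as 1 group, which puts differences among the 4 into the error, left 1 of the 18 higher and 4 lower, beside 19.3% and 15.2% of all genes. The count higher than each was 3 without siMRGBP replicate 1 and 2 without siMRGBP replicate 2, siMRG15 replicate 2, siLuc replicate 1 or siLuc replicate 2. The median of -0.10 changed sign under some alternatives, between -0.22 and 0.06. BTG2, an antiproliferative gene, was at 41.2 and 40.5 CPM in siTIP60, 92.4 to 238 CPM (median 139.9) in the 8 other knockdown libraries and 99.5 and 108 CPM in siLuc. C12orf5 (now TIGAR), a regulator of glycolysis, was at 13.8 and 12.8 CPM in siTIP60, 38.5 to 74.8 CPM (median 53.8) in the 8 other knockdown libraries and 37.8 and 34.6 CPM in siLuc. GDF15, a stress cytokine, was at 15.7 and 14.6 CPM in siTIP60, 4.10 to 9.65 CPM (median 6.31) in the 8 other knockdown libraries and 3.94 and 3.66 CPM in siLuc. The first 2 were lower in siTIP60 than in every other library and GDF15 was higher. CCNG1, cyclin G1, and PPM1D, a phosphatase that dampens p53 signalling, differed by -1.07 ± 0.05 (adjusted p = 6.35e-10) and -0.81 ± 0.04 (adjusted p = 1.94e-09).

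Genes of the ATF4 response, which amino acid shortage and other stresses induce, were mostly higher in siTIP60. Of 26 genes 20 were measured, 18 were higher and 2 lower than the mean of the 4 and 10 were higher than each, with a median of 0.79. Among all genes 43.9% were higher than the mean and 20.9% higher than each. Relative to siLuc the list median was 1.05 in siTIP60 and 0.37 in the mean of the 4, so both lay above the control. Of the 20, 7 were higher with the 8 libraries fitted as 1 group, beside 19.3% of all genes. STC2, a secreted glycoprotein, was at 16.9 and 16.2 CPM in siTIP60, 0.463 to 2.20 CPM (median 0.963) in the 8 other knockdown libraries and 0.690 and 0.735 CPM in siLuc. CHAC1, which degrades glutathione, was at 37.0 and 37.9 CPM in siTIP60, 4.71 to 20.6 CPM (median 16.4) in the 8 other knockdown libraries and 6.31 and 6.30 CPM in siLuc. ASNS, asparagine synthetase, was at 302 and 279.5 CPM in siTIP60, 108 to 168 CPM (median 137) in the 8 other knockdown libraries and 57.5 and 69.0 CPM in siLuc. In all 3 siTIP60 was above every other library, and for ASNS the 8 others also lay above siLuc.

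SLC7A11, a cystine transporter, was at 219 and 234 CPM in siTIP60, 20.8 and 18.6 CPM in siMRG15, 142 and 139.5 CPM in siMRGX, 227 and 221 CPM in siMRGBP, 82.7 and 84.5 CPM in siBRD8 and 43.9 and 57.4 CPM in siLuc. Its difference of 1.40 ± 0.08 (adjusted p = 3.2e-09) from the mean was not seen against siMRGBP, where it was 0.01 ± 0.10 (adjusted p = 0.908). The ASNS window (chr7:97872409-97872658, minus strand) is shown because its promoter is a known ATF4 target, not for the size of its difference. It held the letters TGATGNAA, the ATF4 element, 68 bases before the start, in capitals. Of 16 genes of the list with a window, 4 (25%) held these letters on either strand, beside 1.89% of the tested genes and 3.19% of all promoters. CHAC1 held a match 209 bases before its start, and the window of STC2 held none.
ASNS: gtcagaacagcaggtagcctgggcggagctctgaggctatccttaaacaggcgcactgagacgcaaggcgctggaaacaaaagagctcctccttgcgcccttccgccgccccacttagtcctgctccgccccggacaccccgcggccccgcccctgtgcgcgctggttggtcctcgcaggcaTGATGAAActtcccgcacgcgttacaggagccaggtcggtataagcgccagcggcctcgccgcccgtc

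Targets of NF-kB, the transcription factor of inflammatory signalling, were also mostly higher. Of 24 genes 17 were measured, 15 were higher and 1 lower than the mean of the 4 and 7 were higher than each, with a median of 0.62. Over all genes the shares were 43.9% and 20.9%. The list median relative to siLuc was 1.22 in siTIP60 and 0.55 in the mean of the 4, so here too both lay above the control. Against the 8 libraries fitted as 1 group 6 were higher, beside 19.3% of all genes. IL1A, the cytokine interleukin 1 alpha, was at 49.3 and 50.1 CPM in siTIP60, 0.653 to 6.64 CPM (median 3.75) in the 8 other knockdown libraries and 1.03 and 1.00 CPM in siLuc, a difference of 3.65 ± 0.11 (adjusted p = 1.25e-11). CSF2, the growth factor GM-CSF, was at 19.1 and 18.3 CPM in siTIP60, 0.379 to 4.10 CPM (median 1.85) in the 8 other knockdown libraries and 0.417 and 0.513 CPM in siLuc. The chemokine CCL20 was at 9.56 and 8.92 CPM in siTIP60, 1.05 to 3.60 CPM (median 1.84) in the 8 other knockdown libraries and 1.19 and 0.887 CPM in siLuc. All 3 were above every other library in siTIP60. The chemokine CCL2 differed by 1.68 ± 0.06 (adjusted p = 1.12e-10) and TNFAIP2, a gene that TNF induces, by 1.07 ± 0.05 (adjusted p = 5.24e-10). NFKBIA, the inhibitor of NF-kB and the member that was lower, was named after its value was seen and differed by -0.44 ± 0.08 (adjusted p = 0.000271).

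The IL1A window (chr2:112784494-112784743, minus strand) is shown because IL1A had the largest difference in the list. It held an AP-1 match (TGAGTCA, on the other strand) 12 bases before the start, in capitals, and no match to the NF-kB motif. The CSF2 window held neither, and that of CCL20 an NF-kB match at 79. AP-1 letters stood in 55 of 1133 windows (4.85%) of genes higher than each of the 4, in 19 of 1114 (1.71%) of genes lower than each and in 3.27% of the tested genes, beside 4.16% of all promoters. NF-kB letters stood in 4 of 13 windows (30.8%) of the list, in 5.98% of the tested genes and in 5.05% of all promoters.
IL1A: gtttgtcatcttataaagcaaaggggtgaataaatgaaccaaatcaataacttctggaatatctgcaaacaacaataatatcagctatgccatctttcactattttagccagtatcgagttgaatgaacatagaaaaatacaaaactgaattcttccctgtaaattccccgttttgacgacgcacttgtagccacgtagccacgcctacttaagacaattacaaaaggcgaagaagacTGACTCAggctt

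Few members of the osteoblast and epithelial lists were measured. Of 14 osteoblast genes 6 were measured, of which 5 were higher than the mean of the 4 and 4 higher than each, with 3 higher than each without siTIP60 replicate 1 and 2 without replicate 2. Against the 8 libraries as 1 group 3 were higher. Over all genes 43.9% were higher than the mean, 20.9% higher than each and 19.3% higher with the 8 as 1 group. RUNX2, the master regulator of osteoblasts, was at 124 and 118 CPM in siTIP60, 30.4 to 51.9 CPM (median 42.8) in the 8 other knockdown libraries and 44.5 and 45.3 CPM in siLuc, a difference of 1.54 ± 0.05 (adjusted p = 2.34e-11). ALPL, bone alkaline phosphatase, was at 103 and 108 CPM in siTIP60, 9.28 and 10.5 CPM in siMRG15, 25.9 and 25.1 CPM in siMRGX, 99.8 and 77.2 CPM in siMRGBP, 29.8 and 29.5 CPM in siBRD8 and 18.8 and 17.02 CPM in siLuc. RUNX2 was apart from all others in siTIP60, while ALPL was high in siTIP60 and siMRGBP. Of 15 epithelial genes 6 were measured, of which 6 were higher than the mean, 2 higher than each and 2 higher than the 8 libraries as 1 group. CDH1, E-cadherin, was at 15.7 and 15.2 CPM in siTIP60, 1.25 to 10.1 CPM (median 3.86) in the 8 other knockdown libraries and 2.174 and 1.97 CPM in siLuc. The summed level of 3 listed epithelial markers, of 7, was 193.5 and 194.3 CPM in siTIP60, 70.3 to 177.5 CPM in the 8 others and 109.3 and 132.3 CPM in siLuc, and its part in these results was not tested.

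Of a list of 17 erythroid and myeloid genes 5 were measured, 3 were higher and 2 lower than the mean of the 4, and 3 were higher and 1 lower than each. The shares of all genes were 43.9% higher and 36.4% lower than the mean, and 20.9% higher and 17.1% lower than each. Without siTIP60 replicate 1 the counts against the mean were 1 higher and 1 lower. The 3 higher than each became 1 without siTIP60 replicate 1, 1 of the siBRD8 libraries, siMRG15 replicate 2 or siMRGBP replicate 1. The 2 lower than the mean became 1 without 1 of the siBRD8 libraries, siMRG15 replicate 2 or siMRGX replicate 1. Of the 10 genes fixed as markers of K562-type blood cells 3 were listed, HBA1, PTPRC and SPI1, with sums of 13.8 and 3.55 CPM in siTIP60, 0.274 to 1.37 CPM in the 8 others and 0.817 and 0.898 CPM in siLuc. HBA1, a haemoglobin chain with a near-identical copy, was at 6.75 and 0.0421 CPM in siTIP60, 0 to 0.0297 CPM (median 0.0166) in the 8 other knockdown libraries and 0.0130 and 0 CPM in siLuc. PTPRC, the leukocyte antigen CD45, was at 5.97 and 3.35 CPM in siTIP60, 0.193 to 1.26 CPM (median 0.513) in the 8 other knockdown libraries and 0.820 and 0.782 CPM in siLuc. The HBA1 level came from 1 library. Without siTIP60 replicate 1 HBA1 and SPI1, a myeloid transcription factor, lost their calls, with adjusted p of 0.65 and 0.176 (limma).

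Of 29 genes of the extracellular matrix and the TGF-beta response 21 were measured, 13 were higher and 2 lower than the mean of the 4, and 5 were higher and 1 lower than each, with a median of 0.34. The share higher than each, 23.8%, was near the 20.9% of all genes, and 61.9% of the list were higher than the mean, beside 43.9%. The median against siMRG15 was 1.09 and that against siMRGBP -0.09. COL6A3, a collagen VI chain, was at 678 and 699 CPM in siTIP60, 71.6 to 417 CPM (median 279) in the 8 other knockdown libraries and 396 and 352 CPM in siLuc. TGFBI, a matrix protein, was at 256 and 254 CPM in siTIP60, 78.0 to 123 CPM (median 81.8) in the 8 other knockdown libraries and 73.6 and 93.5 CPM in siLuc. LOXL2, which crosslinks collagen, was at 19.0 and 17.8 CPM in siTIP60, 64.5 to 85.3 CPM (median 70.1) in the 8 other knockdown libraries and 106 and 81.6 CPM in siLuc. COL6A3 and TGFBI were thus above every other library in siTIP60 and LOXL2 below. Fitted against the 8 libraries as 1 group, 5 genes of the list were higher and 1 lower, beside 19.3% and 15.2% of all genes. With TMM or median-of-ratios factors 4 were lower than the mean.

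Of 27 genes of actin and Hippo signalling 16 were measured, 3 were higher and 8 lower than the mean of the 4, and 3 were higher and 3 lower than each. The shares beyond each, 18.8% in either direction, were near those of all genes, 20.9% higher and 17.1% lower, and 50% were lower than the mean, beside 36.4%. ANKRD1, a target of the Hippo effectors, was at 1094 and 1145 CPM in siTIP60, 102 to 579.6 CPM (median 226) in the 8 other knockdown libraries and 125 and 117 CPM in siLuc, with siMRGBP the next highest. WWTR1, the effector TAZ, was at 104 and 109 CPM in siTIP60, 37.6 to 62.6 CPM (median 49.4) in the 8 other knockdown libraries and 42.8 and 51.0 CPM in siLuc. TPM4, a tropomyosin, was at 104 and 114 CPM in siTIP60, 202 to 737 CPM (median 293) in the 8 other knockdown libraries and 332 and 356 CPM in siLuc. The first 2 were above and TPM4 below all 8 others. The counts were 2 higher and 2 lower with the 8 libraries as 1 group, and DESeq2 called 5 higher.

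Few genes of the chromatin lists were measured. The 3 measured members of other acetyltransferase complexes, of 22, were all lower than each of the 4, beside 17.1% of all genes, and 1 was without siTIP60 replicate 1 or siMRGBP replicate 1. KAT6A, which acetylates histone H3, was at 60.3 and 65.6 CPM in siTIP60, 76.6 to 165 CPM (median 127) in the 8 other knockdown libraries and 126 and 124 CPM in siLuc. ING4, a subunit of another acetyltransferase complex, differed by -0.73 ± 0.07 (adjusted p = 4.38e-07) and KANSL3, of the NSL complex, by -0.53 ± 0.06 (adjusted p = 1.48e-06). Of 20 genes in a list of MRG partners and related chromatin complexes 4 were measured. Of these, 4 were lower than the mean and 3 lower than each, beside 36.4% and 17.1% of all genes. MSL3, a chromodomain protein of the MSL complex, was at 13.0 and 14.9 CPM in siTIP60, 32.3 to 56.8 CPM (median 41.9) in the 8 other knockdown libraries and 41.7 and 41.9 CPM in siLuc. RBBP4, a histone-binding protein, differed by -0.90 ± 0.05 (adjusted p = 1.46e-09) and NSD1, a histone methyltransferase, by -0.78 ± 0.07 (adjusted p = 2.02e-07).

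Of 17 subunits of the TIP60 complex, a list without KAT5, 8 were measured, with 3 higher and 2 lower than the mean of the 4. Their median of 0.02 changed sign under some alternatives. The 4 other targets were among the 8, and each was reduced by its own siRNA, so counts and median against the mean do not show an absence of change. The medians were -0.37 against siMRG15, -0.47 against siMRGX, -0.29 against siMRGBP and -0.40 against siBRD8. Relative to siLuc the median was -0.67 in siTIP60 and -0.49 in the mean of the 4. The shares of 37.5% higher and 25% lower were below those of all genes, 43.9% and 36.4%. Of all genes 20.9% were higher and 17.1% lower than each, and 19.3% higher and 15.2% lower with the 8 libraries as 1 group. With the 8 libraries as 1 group 0 were higher by limma (0 at an unadjusted p under 0.05) and 1 lower, and without siTIP60 replicate 2 also 1 was lower. MBTD1, a reader of methylated histones in the complex, was lower than each, at 10.99 and 11.8 CPM in siTIP60, 17.2 to 24.5 CPM (median 19.2) in the 8 other knockdown libraries and 24.4 and 24.7 CPM in siLuc. Of 14 genes of histone variants and their partners 5 were measured, of which 4 were lower than the mean, beside 36.4% of all genes. Only 1 (20%) was lower than each, near the 17.1% of all genes. The median was -0.66 against siMRG15, -0.74 against siMRGX and -1.43 against siBRD8, but 0.26 against siMRGBP. With the 8 libraries as 1 group 1 was lower, beside 15.2%. ANP32E, a chaperone that removes H2A.Z, was at 37.5 and 44.5 CPM in siTIP60, 46.3 to 139 CPM (median 113) in the 8 other knockdown libraries and 156 and 158 CPM in siLuc, and it lost the call against each without siTIP60 replicate 1 or siMRGBP replicate 2.

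**Figure D4:**
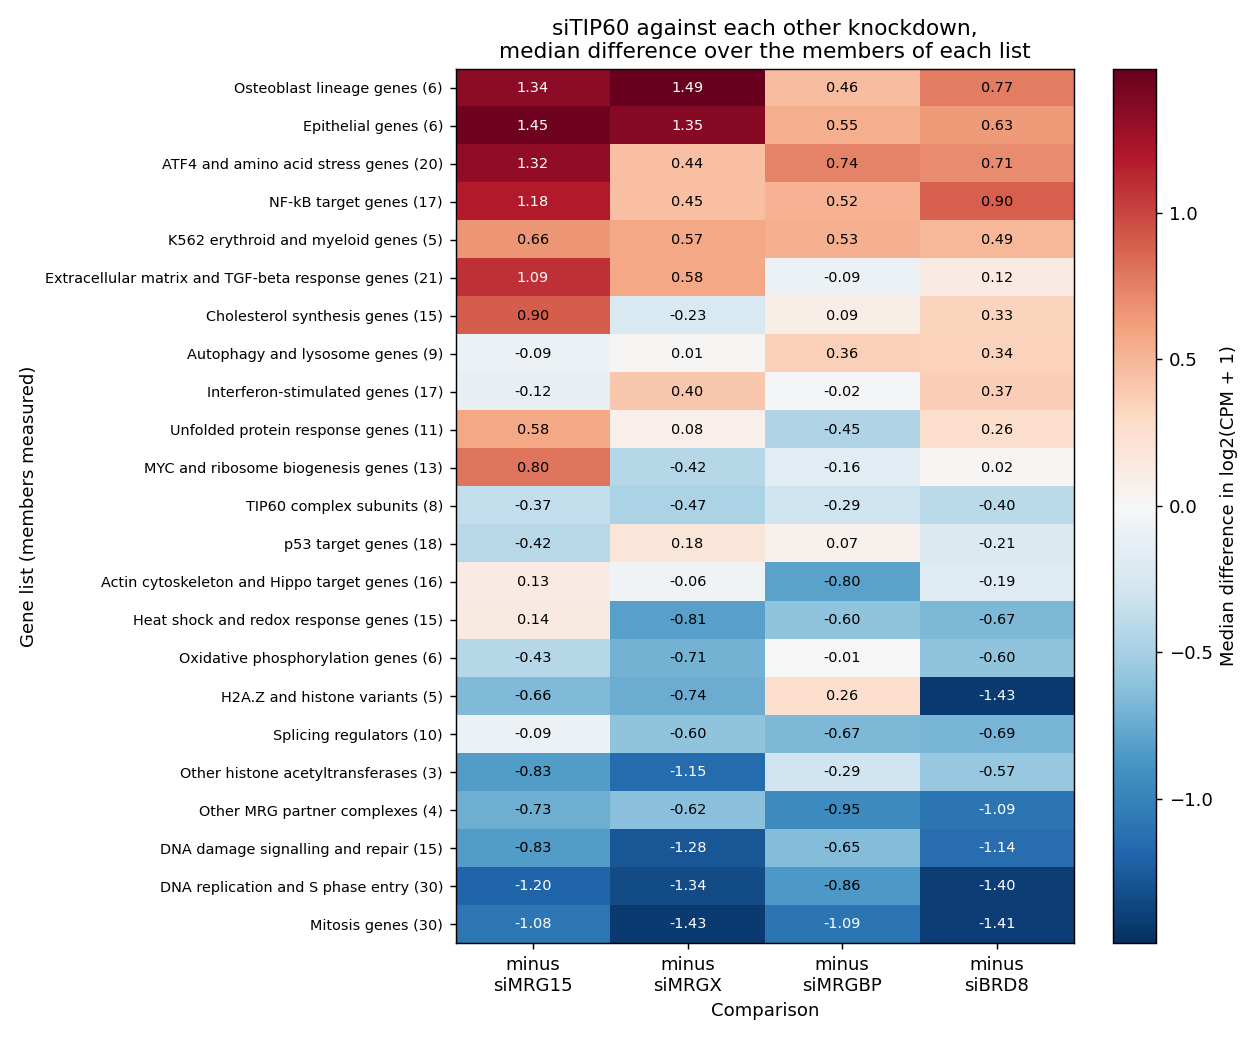
Median difference in log2(CPM + 1), siTIP60 minus each of the 4 other knockdowns, over the measured members of 23 gene lists. The replication, mitosis and repair medians lie between -1.43 and -0.65 against every knockdown, and the ATF4 and NF-kB medians between 0.44 and 1.32.

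Other lists were small or depended on which knockdown siTIP60 was set against, and their counts stand beside 43.9% of all genes higher and 36.4% lower than the mean, 20.9% higher and 17.1% lower than each, and 19.3% higher and 15.2% lower with the 8 libraries as 1 group. Of 23 cholesterol synthesis genes 15 were measured, with 12 higher and 2 lower than the mean of the 4, 1 higher than each, and a median of 0.90 against siMRG15 and -0.23 against siMRGX. With the 8 libraries as 1 group 0 of the 15 were higher by limma (0 at an unadjusted p under 0.05), and edgeR and DESeq2 in the fit with separate groups called 12 and 12 higher. Leaving siMRG15 out of the mean gave 7 higher. HMGCS1, an early enzyme of the pathway and the gene higher than each, was at 203 and 213 CPM in siTIP60, 70.5 to 189.8 CPM (median 175) in the 8 other knockdown libraries and 127 and 122 CPM in siLuc. It lost the call against each when any 1 library of siTIP60, siMRGX, siMRGBP or siBRD8 was left out, with TMM or median-of-ratios factors and by edgeR.

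Of 27 splicing regulators 10 were measured, 3 were higher and 6 lower than the mean of the 4, and 1 was higher and 5 lower than each. The counts were 1 higher and 3 lower with the 8 libraries as 1 group. The gene higher than each lost that call without siTIP60 replicate 2, siMRG15 replicate 1 or siMRGBP replicate 1, with TMM factors and by DESeq2, and without siMRGBP replicate 2 there were 2. SRSF2, a serine and arginine rich splicing factor, was at 121 and 118 CPM in siTIP60, 202 to 292 CPM (median 272) in the 8 other knockdown libraries and 255 and 302 CPM in siLuc, and SRSF7, another of that family, differed by -0.79 ± 0.04 (adjusted p = 2.44e-09). PTBP2, the neuronal form of a polypyrimidine tract binding protein, was at 22.9 and 22.6 CPM in siTIP60, 44.5 and 44.1 CPM in siMRG15, 30.6 and 29.7 CPM in siMRGX, 179 and 164 CPM in siMRGBP, 27.4 and 27.8 CPM in siBRD8 and 67.0 and 69.8 CPM in siLuc, with siMRGBP far above the other knockdowns and siTIP60 below all of them. Of 21 heat shock and redox genes 15 were measured, 3 were higher and 9 lower than the mean of the 4 and, with the 8 libraries as 1 group, 0 higher (0 at an unadjusted p under 0.05, limma) and 4 lower. Of the 15, 4 were lower than each, with a median of 0.14 against siMRG15 and -0.81 against siMRGX. HSPE1, a mitochondrial chaperonin, was at 38.9 and 34.8 CPM in siTIP60, 55.0 to 88.2 CPM (median 62.4) in the 8 other knockdown libraries and 69.6 and 65.6 CPM in siLuc. HSPA1A and HSPA1B, near-identical copies of 1 heat shock protein, differed by -1.34 ± 0.10 (adjusted p = 4.53e-08) and -0.83 ± 0.05 (adjusted p = 1.14e-08).

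Of 18 genes of the unfolded protein response 11 were measured, 5 were higher and 3 lower than the mean of the 4, and 3 were higher and 1 lower than each, with 2 higher than each without siTIP60 replicate 1 and 1 without replicate 2 or with TMM or median-of-ratios factors. The gene lower than each lost that call without siTIP60 replicate 1 or 1 of the siMRG15 libraries. HERPUD1, of the degradation machinery of the endoplasmic reticulum, was at 135 and 131 CPM in siTIP60, 35.0 to 68.9 CPM (median 49.9) in the 8 other knockdown libraries and 52.4 and 52.8 CPM in siLuc. Of 28 interferon-stimulated genes 17 were measured, 7 were higher and 3 lower, and 3 were higher than each. The shares of 41.2% higher than the mean and 17.6% higher than each lay slightly below those of all genes. OASL, an antiviral protein, was at 12.2 and 9.67 CPM in siTIP60, 0.811 to 4.63 CPM (median 2.86) in the 8 other knockdown libraries and 6.44 and 9.14 CPM in siLuc, with both siLuc libraries above the 8 others and below siTIP60. Of 26 autophagy and lysosome genes 9 were measured, 6 were higher and 1 lower, and WIPI1, a protein of the forming autophagosome, was the gene higher than each, at 36.5 and 36.1 CPM in siTIP60, 8.62 to 16.3 CPM (median 11.9) in the 8 other knockdown libraries and 9.53 and 10.7 CPM in siLuc. With the 8 libraries as 1 group the higher genes numbered 1 in the unfolded protein response, 3 among interferon-stimulated genes and 1 in autophagy. The autophagy gene lower than the mean lost its call without siTIP60 replicate 2, and 3 were higher than each when 1 of the siLuc libraries was left out.

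Of 24 MYC and ribosome biogenesis genes 13 were measured, 6 were higher and 4 lower than the mean of the 4, and 3 were lower than each. With the 8 libraries as 1 group 0 were higher (0 at an unadjusted p under 0.05, limma) and 3 lower, and leaving siMRG15 out of the mean gave 7 lower. NOLC1, a nucleolar chaperone, was at 67.7 and 74.9 CPM in siTIP60, 129 to 203 CPM (median 166) in the 8 other knockdown libraries and 179 and 164 CPM in siLuc. Of 31 genes of oxidative phosphorylation 6 were measured, 2 were higher and 4 lower, or 0 higher (0 at an unadjusted p under 0.05, limma) and 1 lower with the 8 libraries as 1 group. UQCRC2, a core protein of complex III, was lower than each, at 52.2 and 54.0 CPM in siTIP60, 61.7 to 121 CPM (median 91.8) in the 8 other knockdown libraries and 83.5 and 80.1 CPM in siLuc. NDUFA4, of the respiratory chain, was at 26.8 and 26.5 CPM in siTIP60, 199.9 and 176 CPM in siMRG15, 157 and 138 CPM in siMRGX, 30.9 and 23.2 CPM in siMRGBP, 156 and 152 CPM in siBRD8 and 159 and 273 CPM in siLuc, and was low in siTIP60 and siMRGBP alike.

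For some genes the mean of the 4 hid disagreement. Of genes higher than the mean, 683 (7.75% of all genes) had single calls of both signs, and of genes lower than the mean 598 (6.79%) did. Among the 683 the knockdown on the other side was siMRGBP for 277, siMRG15 for 257, siMRGX for 119 and siBRD8 for 96, and among the 598 it was siMRG15 for 212, siMRGX for 201, siMRGBP for 158 and siBRD8 for 67, with some genes counted under more than 1. Among the genes with the largest such differences were DSP, TRAF1, ABCA13 and LCP1 on the higher side and H2AFX (now H2AX), VANGL1 and MMD on the lower side. The exception was siMRGBP in 6 of these 7 and siMRGX in TRAF1.

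LCP1, a protein that bundles actin, was at 67.6 and 67.2 CPM in siTIP60, 3.38 and 4.13 CPM in siMRG15, 24.6 and 26.6 CPM in siMRGX, 188 and 151 CPM in siMRGBP, 28.8 and 30.2 CPM in siBRD8 and 18.1 and 17.4 CPM in siLuc. It was thus higher in siTIP60 than in siMRG15, siMRGX and siBRD8 and lower than in siMRGBP, a difference of -1.31 ± 0.10 (adjusted p = 9.81e-08). H2AFX, the histone variant phosphorylated at DNA breaks, was at 62.6 and 58.2 CPM in siTIP60, 201 and 200.3 CPM in siMRG15, 255 and 266 CPM in siMRGX, 44.5 and 46.5 CPM in siMRGBP, 264 and 266 CPM in siBRD8 and 308 and 229 CPM in siLuc. Both siTIP60 and siMRGBP were low, with siTIP60 higher than siMRGBP by 0.40 ± 0.10 (adjusted p = 0.00361). TRAF1, an adaptor of TNF receptors, was at 25.1 and 28.0 CPM in siTIP60, 2.09 and 1.76 CPM in siMRG15, 37.2 and 38.8 CPM in siMRGX, 10.97 and 7.95 CPM in siMRGBP, 10.3 and 11.1 CPM in siBRD8 and 2.40 and 2.37 CPM in siLuc. None of the 7 genes passed with the 8 libraries fitted as 1 group, with adjusted p of 0.121 to 0.42 (limma).

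**Figure D5:**
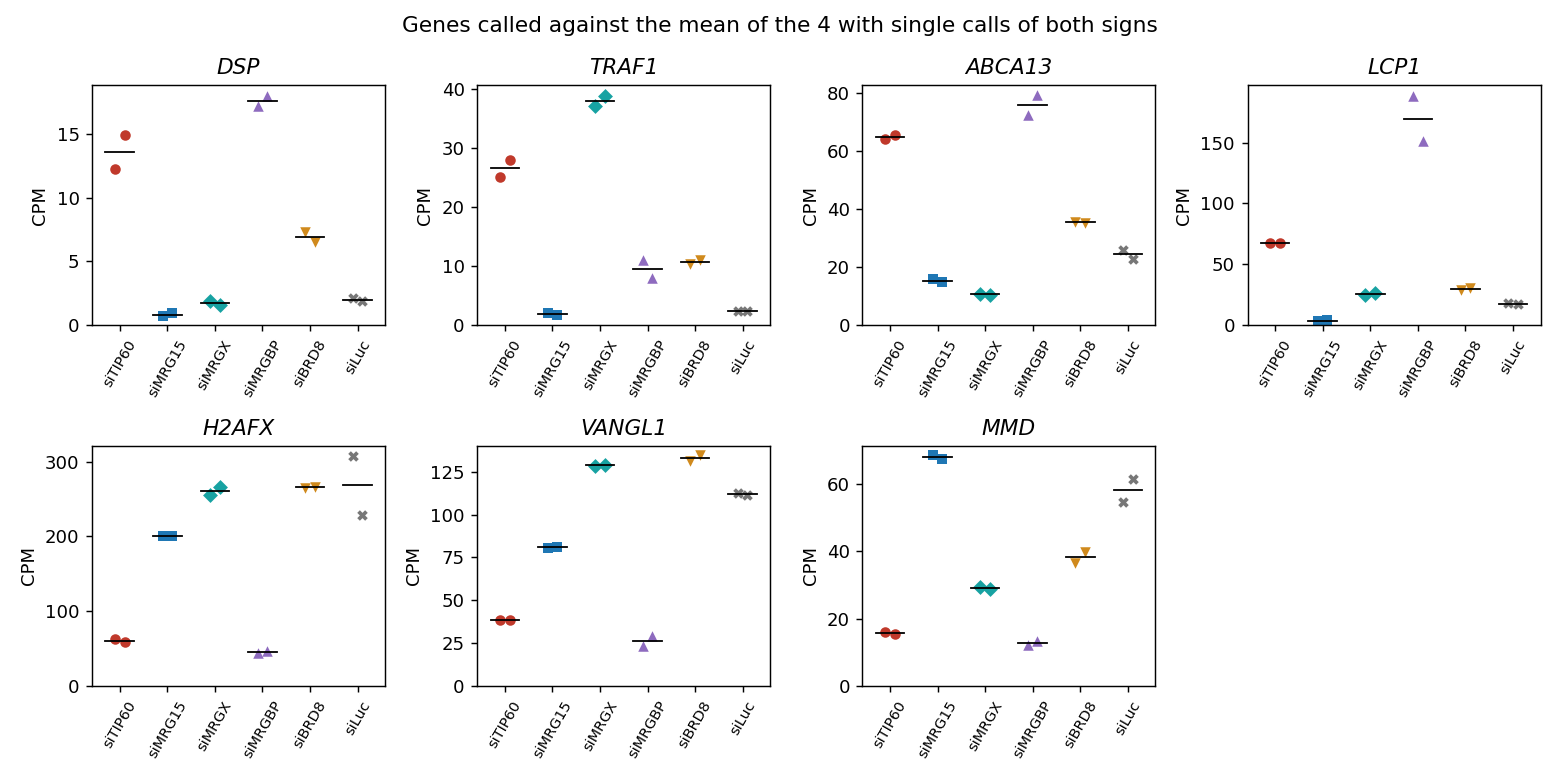
CPM by library for 7 genes whose comparison with the mean of the 4 passed while single comparisons went both ways, with 2 points per knockdown. In 6 panels siMRGBP lies on the far side of siTIP60 from the mean of the 4, and in the TRAF1 panel siMRGX does.

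A difference from the mean of the 4 does not say which side differs from the control. For 659 genes (7.48%) higher than the mean of the 4, siTIP60 was higher and the mean of the 4 lower than siLuc, both by the test. For 446 genes (5.06%) lower than the mean the reverse held. These comparisons share the siLuc libraries. Of the 1844 genes higher than each of the 4, both siLuc libraries lay within the range of the 8 for 1144, and of the 1507 lower genes for 928. NEURL1B, a ubiquitin ligase of the Notch pathway, was at 17.5 and 17.6 CPM in siTIP60, 48.6 to 139 CPM (median 94.4) in the 8 other knockdown libraries and 60.8 and 62.2 CPM in siLuc. ZBED3, a zinc finger protein, was at 4.94 and 5.33 CPM in siTIP60, 18.6 to 42.4 CPM (median 24.9) in the 8 other knockdown libraries and 12.8 and 16.9 CPM in siLuc. For ZBED3 the control lay below all 8 and above siTIP60.

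The authors' deposited table of transcripts held 25895 transcripts, with marks for pairs of knockdowns. There were 858 transcripts, under 650 gene names, that the authors' deposited table marked higher in siTIP60 than in each of the 4, and 959 transcripts, under 754 gene names, that it marked lower. For 18 gene names the authors' deposited table marked 1 or more transcripts higher and others lower than each of the 4. Among these were SMC1A, a cohesin subunit, SERBP1, an RNA-binding protein, and TMED10, a cargo receptor of the secretory pathway, named after the marks were seen. Their gene-level differences in the limma fit were -1.14 for SMC1A, -0.97 for SERBP1 and -1.60 for TMED10, but 7 of the 11 such genes with a gene-level value were called higher and 4 lower, with ADAMTS6, a secreted protease, the highest at 1.63. The rule behind the marks is not given in the sources used here.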

How the data were processed

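RNA from 12 U2OS libraries, 2 for each of 6 siRNA groups, had been sequenced. The deposited CPM values were made by the authors, and per the file headers the table holds genes selected as significant. No source used here gives the rule of selection, the use of strand or the scaling. The submitters' processing notes name minimap2 2.17-r941, featureCounts, Subread 2.0.0 and the build hg19. The table had 8813 rows, of which 5 repeated rows were removed and 14 names retyped by spreadsheet software were tested and not named. Of the rest, 6721 names matched a current symbol, 632 an older one and 1455 none (RefSeq, GRCh38.p14). The authors' deposited table of transcripts gives marks, read here as other values with no test.

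limma 3.58.1 (R 4.3.3) with a trend was fitted to log2(CPM + 1) with 6 group means over all 12 libraries, with 6 residual degrees of freedom and p-values adjusted by Benjamini-Hochberg over 8808 genes. The contrasts were siTIP60 minus the mean of the 4, minus each of the 4 and minus siLuc. CPM steps gave whole reads for 100% of values (tolerance 0.01 reads), and listed genes held 30.4 to 38.2% of an effective library size. The reads were tested with edgeR 4.0.16 and DESeq2 1.42.0 as alternatives. The number of reads limits precision by counting error only, and replicates differed by more than that in every group. The scripts were tested on simulated data.

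The genes named are the 5 targets, the 12 each way that were farthest beyond each of the 4, 4 each way with single calls of both signs, 4 each way with opposite calls against siLuc, and up to 5 members of each of 23 lists by adjusted p. Names that matched no RefSeq symbol, current or older, could not enter the choices made by size of difference. The members and lists were chosen with earlier results of these data known. Alternatives were the pseudocount, filters on low values, scaling, fits without siLuc, with the 8 libraries as 1 group or with a replicate block, and leaving out each library or each of the 4 groups. Promoter windows are from RefSeq. Some genes that this rule names are not reported here.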

Additional observations from a re-analysis of the deposited data

Results flagged for a closer look

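For 8 genes siTIP60 and the mean of the 4 other knockdowns differed from siLuc in opposite directions, and the difference between them was itself the tested contrast (limma, 2 libraries a group). MMP9 differed from siLuc by 2.74 in siTIP60 and -0.999 in the mean of the 4, a difference of 3.74 between them. TNFRSF11B differed from siLuc by 3.03 in siTIP60 and -0.56 in the mean of the 4 (3.60 between them), HHIP by 2.09 and -1.36 (3.45) and SIGLEC15 by 2.93 and -0.31 (3.23). In the other direction, CORO1C differed from siLuc by -2.26 in siTIP60 and 0.18 in the mean of the 4 (-2.44 between them) and NEURL1B, of the Notch pathway, by -1.75 and 0.54 (-2.29). PROSER1, a proline and serine rich protein, differed from siLuc by -1.78 in siTIP60 and 0.47 in the mean of the 4 (-2.25) and ZBED3 by -1.36 and 0.79 (-2.15). Single knockdowns did not all follow their mean. In siMRGBP TNFRSF11B was higher than in siLuc by 0.27 (adjusted p = 0.0137) and NEURL1B differed by -0.21 (adjusted p = 0.027), both by limma. Some single differences from siLuc did not pass in limma. These included MMP9 in siMRGX (-0.20, adjusted p = 0.0667) and SIGLEC15 in siMRGX (0.02, adjusted p = 0.883) and siBRD8 (-0.16, adjusted p = 0.158). CORO1C differed from siLuc by 0.53 in siMRGX and 0.17 in siBRD8, and had no call in siMRG15 (-0.08) or siMRGBP (0.10). All 8 were chosen for this pattern.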

How the results depend on the processing

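Of 27 alternatives, those that moved a count of calls over all genes by over 1.5 times were fitting the 8 libraries as 1 group and keeping genes with a mean of at least 5 CPM. With the 8 libraries as 1 group 1703 genes were higher and 1341 lower than the mean of the 4, since differences among the 4 then enter the error, and 51 named genes lost their calls. At a mean of at least 5 CPM fewer genes were tested. There 2028 genes were higher than the mean of the 4 and 863 higher than each, 2074 were higher than siMRG15, 2125 than siMRGX, 1779 than siMRGBP and 1841 than siBRD8, 2278 were lower than siMRG15, and 4823 differed among the 4. Leaving 1 group out of the mean reversed MORF4L1 (-0.60) and RUVBL1 (-0.074) without siMRG15, MORF4L2 (-0.32) without siMRGX, MRGBP (0.20) and TFRC (0.10) without siBRD8, MRGBP (0.34) without siMRGX, and BRD8 (0.20) without siMRG15 and (0.20) without siMRGX. Leaving out 1 library gave 3542 to 3925 genes higher and 2811 to 3305 lower than the mean, 1648 to 1918 higher and 1327 to 1570 lower than each, and 7997 to 8364 differing among the 4. With TMM factors 3465 were higher and 3603 lower than the mean, with a median over all genes of -0.03. Counts in the gene lists, which are small, moved more. Of 92 counts in 23 lists 59 moved by over 1.5 times under at least 1 alternative: 31 with the 8 libraries as 1 group, 31 on leaving a group out of the mean, which also drops it from the comparison with each, 14 on leaving out 1 library and 6 with TMM factors. Of the 127 named genes run under all 27 alternatives 76 kept their direction and call. The other 17, at low levels, were left out by 1 or both of the filters on low values, and 12 of them kept both elsewhere. Differences between replicates 1 and 2 were correlated between groups. Of 15 pairs of groups 3 had a correlation over 0.1, with a range of -0.47 (siMRGBP and siLuc) to 0.183 (siTIP60 and siMRG15). Also below -0.1 were siMRGX and siLuc (-0.22), siTIP60 and siMRGX (-0.18) and siTIP60 and siBRD8 (-0.11). A block by replicate number does not take up deviations of opposite sign. With the replicate block 3841 genes were higher and 3167 lower than the mean, and 1833 higher and 1491 lower than each.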
